A study of Glycine max with 8 samples.

Results

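DFR1, DFR2, ANS2 and ANR1 encode late enzymes of the flavonoid pathway that lead towards proanthocyanidins, the tannins of the soybean seed coat. They were taken as the probe sets that the array's annotation assigns to these symbols, which gave 1 probe set for each of the 4 genes, among 6029 genes that have a soybean probe set of their own. The signals came from 8 Affymetrix soybean arrays hybridised with biotin-labelled cRNA from Glycine max cultivar Tamahomare, 2 arrays for each of 4 stages. The earliest stage was the pod as it began to elongate. Pods were sampled along with their seeds when the bean measured 2 mm, and seeds without pods at 5 mm and at full size, while still green. No treatment, mutation or age in days separates the groups in the labels, and no stage was divided into seed coat and embryo. Nothing in the labels ties the replicates to different plants, and the p-values therefore cover only sample-to-sample spread, which may be technical.

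Proanthocyanidins are polymers of flavan-3-ols, and in soybean they are found mainly in the seed coat. Dihydroflavonol reductase (DFR) reduces dihydroflavonols to leucoanthocyanidins, and anthocyanidin synthase (ANS) oxidises these to anthocyanidins. Anthocyanidin reductase (ANR) then turns anthocyanidins into epicatechin-type flavan-3-ols, while leucoanthocyanidin reductase (LAR) makes the catechin type directly from leucoanthocyanidins. Flavonol synthase and the isoflavone enzymes draw on earlier intermediates of the same pathway.

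All 4 genes were low in elongating pods, high in beans of 2 and 5 mm, and lower again in fully grown beans. DFR1 kept a larger share of its own highest stage mean there than the other 3. Signals are given in linear units after each array was scaled to an equal median over 33625 tested soybean probe sets. The background of an array is the 95th percentile of its probe sets for 2 soybean pathogens, and after scaling it lay between 5.62 and 6.68 on the arrays of the first 3 stages and at 15.98 and 18.6 in fully grown beans. All 4 probe sets passed the filter of signal above background on at least 2 of the 8 arrays. DFR1 and ANS2 were above background on all 8 arrays, and DFR2 and ANR1 on 6. A probe set's level is not compared with that of another, since probes differ in how they bind.

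As deposited, the arrays differed in scale. Their medians over tested probe sets lay between 24.1 and 138, and the submitters' processing notes name MAS5, a program of Affymetrix that summarises probes, for the 4 arrays of the later stages and for none of the others. A set of 9 bacterial and phage hybridization controls averaged 462 on each array of elongating pods. The 2 mm arrays gave 838 and 839, the 5 mm arrays 475 and 482, and the fully grown arrays 987 and 1032. RNA integrity, read as the ratio of the actin 3' probe set over its 5' probe set, lay between 2.05 and 2.22 on the arrays of elongating pods and of 5 mm beans. The 2 mm arrays gave 3.603 and 3.64, and the fully grown arrays 2.73 and 4.80. Between successive stages the control level and actin ratio moved together with stage and cannot be told apart from it. Elongating pods and 5 mm beans were alike in both, and between them the 4 genes differed by 3.59 to 3.93 on the scale log2(scaled signal + 16). These stages still differ in tissue, pod against seed without pod, and in the processing notes, which name MAS5 only for the 5 mm arrays. Neither can be told apart from stage.

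DFR1 catalyses the first of these steps and is listed by RefSeq with the synonym W3. Its scaled signal was 163 and 139 in elongating pods. The 2 mm arrays read 2050.1 and 2385, the 5 mm arrays 2320.0 and 2329, and the fully grown arrays 719 and 1091. The arrays of the young beans lay above all others, and both fully grown arrays lay above both pod arrays. As a share of the highest stage mean, DFR1 stood at 6.51% in elongating pods and at 38.9% in fully grown beans. When the hybridization controls set the scale, the fully grown share was 7.57% of the bean 5 mm mean.

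DFR2 is the second dihydroflavonol reductase, with the RefSeq synonym W4. It read 23.6 and 25.8 in elongating pods, stood at 441 and 453 when beans measured 2 mm and at 637 and 569.7 when they measured 5 mm, and ended at 3.98 and 1.42 at full size. Both fully grown values were below the background of their arrays, so DFR2 was measured at 3 stages and has only an upper bound at the last. Its pod signals were 3.96 and 4.19 times background.

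ANS2, the anthocyanidin synthase, read 122 and 109 in elongating pods. Young beans gave 1657 and 1814 at 2 mm and 2020.0 and 1882 at 5 mm, and full-sized beans 48.3 and 68.8. The last values were low but above background, at 3.02 and 3.71 times it. ANS2 was thus still measured in fully grown beans, at 3.003% of its bean 5 mm mean.

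ANR1, the anthocyanidin reductase, started at 144 and 171 in elongating pods. It stood at 2207 and 2629.6 on the 2 mm arrays, at 2132 and 2018 on the 5 mm arrays, and at 10.7 and 2.19 on the fully grown arrays. Both fully grown arrays were below background for ANR1, as they were for DFR2. It was the only one of the 4 genes with its highest mean at bean 2 mm, where it reached 2418 ± 299 (SD, n = 2) against 2075 ± 80.2 at bean 5 mm, a difference that did not pass the test (adjusted p = 0.452, limma).

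**Figure D1:**
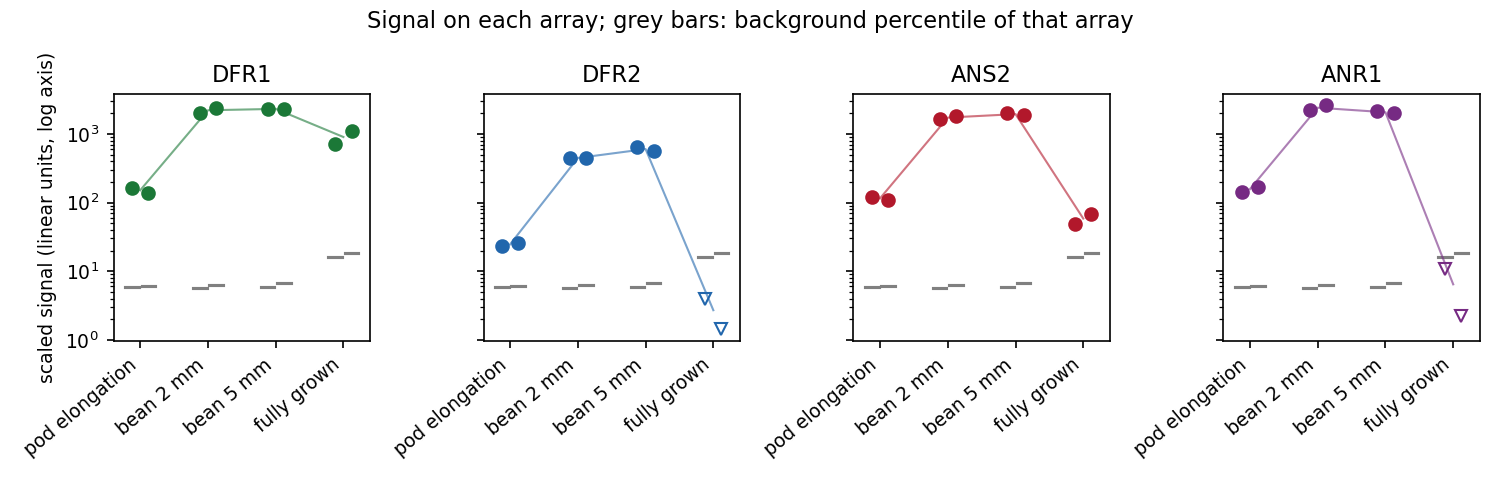
Scaled signal (log axis) of DFR1, DFR2, ANS2 and ANR1 on each of the 8 arrays by stage. Filled circles are arrays above background, open triangles arrays at or below it, grey bars each array's background, and lines join the stage means. The fully grown arrays sit at 719 and 1091 for DFR1 and below background for DFR2 and ANR1.

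From pod elongation to bean 2 mm all 4 genes rose, at nearly equal size. In this step 26.5% of tested probe sets were called higher and 20.4% lower (limma over all 8 arrays, Benjamini-Hochberg over 33625 probe sets, threshold 0.05). On the scale log2(scaled signal + 16), used for every change below, DFR1 rose by 3.74 ± 0.19 (SE, 13.4-fold, adjusted p = 1.54e-06, limma) and DFR2 by 3.51 ± 0.13 (11.4-fold, adjusted p = 3.85e-07). ANS2 rose by 3.74 ± 0.15 (13.3-fold, adjusted p = 4.67e-07) and ANR1 by 3.81 ± 0.19 (14.0-fold, adjusted p = 1.38e-06). The added 16 understates the change of dim signals, which touches DFR2 most: its stage means differed 18.1-fold without it, against 14.7-fold for DFR1. Among the changes of all tested probe sets in this step, the 4 lay between the 99.6th and the 99.7th percentile. Each rise kept its direction and its call under all 18 alternative settings, with values between 2.53 and 4.59.

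Whether the 4 rises differed was asked from log ratios of the genes within each array, which do not depend on how arrays are scaled, apart from the added 16. This comparison was added once the values were known. None of the 6 pairs of genes passed the test of unequal change in the first step (ordinary least squares on the log ratios, adjusted over all tested probe sets). Of all tested probe sets, 99.3% were called lower and 0.152% higher relative to DFR1. The shares were 99.2% and 0.208% relative to DFR2, and 99.4% and 0.167% relative to ANS2. The rise of ANS2 relative to that of DFR1 was -0.0030, with a 95% interval from -0.24 to 0.24. The intervals against DFR1 were wider for DFR2, from -1.08 to 0.63, and for ANR1, from -1.13 to 1.27, so differences of that size could be present.

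Tissue markers moved in the same step. The seed coat marker SCB1, a seed coat protein, went from 751 ± 164 (SD, n = 2) to 4469 ± 638, whereas HPS, a hydrophobic protein of the seed surface, went from 140 ± 16.1 to 6.10 ± 1.35, with 1 array below background. These were 2 of the 3 genes listed as seed coat markers, the third having no probe set tested under its symbol. Which tissue transcribes HPS was not tested, so its course is not read as that of the seed coat. The 7 measured markers of pod wall and green tissue summed to between 11081 and 11107 on the pod elongation arrays and to between 2184 and 4230.3 at bean 2 mm. The 8 measured embryo markers of 13 listed summed to between 11.2 and 13.6 and then to between 196 and 295, with 0 and then 2 of them above background on both arrays. In bulk samples of this kind, more cells of a type and more RNA per cell cannot be told apart, and the part of tissue share in the rise was not tested.

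Between bean 2 mm and bean 5 mm none of the 4 genes passed the test, in a step where 9.29% of tested probe sets were called higher and 9.49% lower. The samples also went from pods with their seeds to seeds without pods, which cannot be told apart from stage. The change was 0.07 ± 0.19 (SE) for DFR1 and 0.17 ± 0.15 for ANS2, with 95% intervals from -0.35 to 0.50 and from -0.17 to 0.50. ANR1 changed by -0.21 ± 0.19, with an interval from -0.63 to 0.21. DFR2 was nearest to a call, at 0.42 ± 0.13 with adjusted p = 0.0576 (limma), and both of its bean 5 mm arrays lay above both of its bean 2 mm arrays. The adjusted p of DFR2 was between 0.0162 and 0.353 over its alternatives, and fell below 0.05 in the upward direction with quantile normalization, with a pseudocount of 64, in a fit to the 4 arrays alone and without either fully grown array.

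HPS went from 6.10 ± 1.35 (SD, n = 2) to 1640.3 ± 382 in this step and SCB1 from 4469 ± 638 to 4958 ± 273. The embryo markers summed to between 866 and 1649.6 at bean 5 mm, where GY1 alone read 13.6 and 548. The pod wall and green tissue markers summed to between 4256 and 5032. Within this sum CAB3 went from 1685 ± 452 to 3472 ± 350, and RCA14 and RCAALPHA also rose on average. VSPA, RCABETA and AP1A fell on average, to 396 ± 128, 96.5 ± 1.48 and 7.36 ± 1.39. The 2 mm arrays differed widely, at 238 and 1575 for VSPA and at 8.21 and 35.1 for AP1A. At 5 mm VSPA read 305 and 486 and AP1A 6.38 and 8.34, so both falls rest on the brighter 2 mm reading. AG1 was not above background on either bean 5 mm array. The part of tissue share in the values of the 4 genes was not tested.

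The calls in this step depend on the scaling. On the values as deposited, where bean 2 mm arrays were brighter throughout, the log2 changes of DFR1, DFR2, ANS2 and ANR1 were -0.88, -0.52, -0.78 and -1.17, and all passed the test. The median over all tested probe sets was -0.76 on that scale, against -0.05 with equal medians. When the hybridization controls set the scale, the values were -0.07, 0.28, 0.02 and -0.36, and none passed. The order of ANR1 against the others was the same under each of these scalings, with ANR1 having the most negative change and DFR2 the most positive. Within arrays, none of the 6 pairs passed the test in this step. Relative to DFR1, 0.00% of tested probe sets were called in either direction. Relative to DFR2, 1.17% were called higher and 19.9% lower, and relative to ANS2 0.110% and 0.482%.

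From bean 5 mm to fully grown beans all 4 genes fell, DFR1 by far less than the other 3. In this step 20.5% of tested probe sets were called lower and 31.6% higher. ANR1 fell by 6.57 ± 0.19 (SE, adjusted p = 6.69e-08, limma), from 2075 ± 80.2 to below background, which is at least 120.4-fold. DFR2 fell by 5.05 ± 0.13 (adjusted p = 4.32e-08), from 603 ± 47.3 to below background, at least 34.95-fold. These bounds compare the geometric mean of the bean 5 mm arrays with that of the background in fully grown beans. ANS2 fell by 4.73 ± 0.15 (26.6-fold, adjusted p = 1.24e-07), from 1951 ± 97.6 to 58.6 ± 14.5.

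DFR1 fell by 1.38 ± 0.19 (2.60-fold, adjusted p = 0.000327, limma), from 2325 ± 6.50 to 905 ± 263. The fall of DFR1 stood at the 5.08th percentile of the changes of all tested probe sets, against 0.0803 for ANS2. All 4 kept their direction and call under the 18 alternatives. The size for DFR1 depended on scaling, with -1.95 after quantile normalization, -2.60 on the deposited values and -3.65 when the hybridization controls set the scale. The median over all tested probe sets in this step was 0.14 with equal medians, 0.03 after quantile normalization, -0.64 on the deposited values and -1.36 on the control scale. On the control scale DFR1 went from 3309 and 3207 to 225 and 268.

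The smaller fall of DFR1 did not depend on the scaling. Relative to DFR1 on the same array, 1.75% of tested probe sets were called lower and 78.3% higher in this step. DFR2, ANS2 and ANR1 were all among those called lower. ANS2, measured above background at both stages, fell by 3.36 more than DFR1 (95% interval of the difference -3.60 to -3.12, adjusted p = 0.00106, ordinary least squares fitted across all probe sets). DFR2 and ANR1 were below background at the last stage, so only bounds hold for them. On the scaled signals the fall of DFR2 was at least 13.3 times that of DFR1 and the fall of ANR1 at least 45.8 times. These bounds were not tested. Ordinary least squares on the readings themselves, below background at the last stage, called both genes lower relative to DFR1 (adjusted p = 0.00217 for DFR2 and 0.00215 for ANR1). Each difference had the same sign in all 4 pairs of a fully grown with a bean 5 mm array. Under each of 16 alternatives the 3 differences kept sign and call, with every adjusted p at most 0.022, and that of ANS2 ranged from -3.66 to -2.71. Relative to ANS2, 0.0416% of tested probe sets were called lower and 99.8% higher, and the fall of ANR1 was at least 3.56 times that of ANS2. For DFR2 against ANS2 the bound was only 1.03 times, so whether DFR2 fell further than ANS2 cannot be read from these arrays. Relative to DFR2, 0.0297% were called lower and 99.8% higher. The falls of DFR2 and ANR1 are not compared with each other, since both ended below background.

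**Figure D2:**
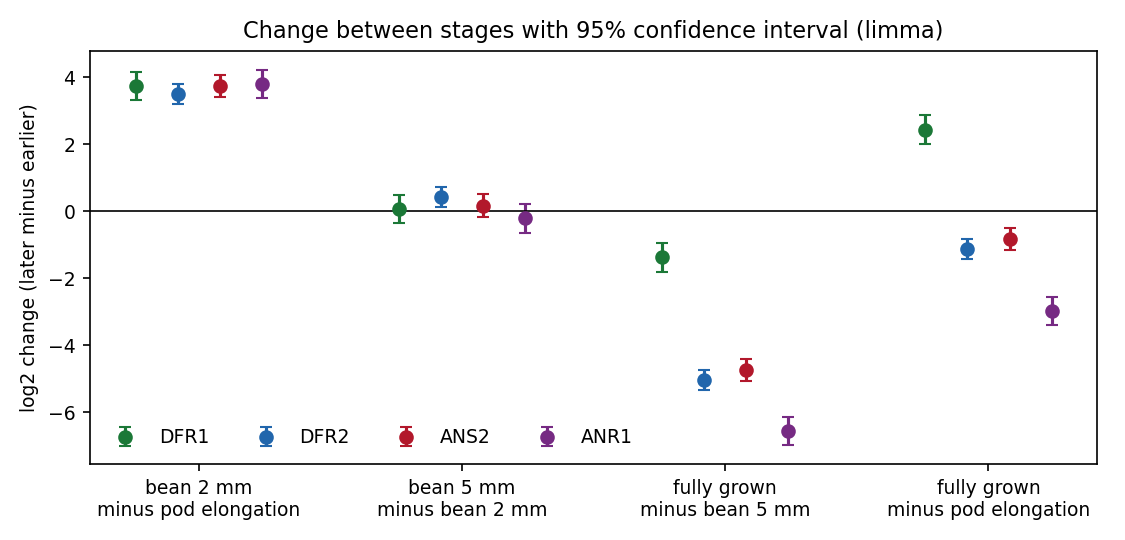
Log2 change of DFR1, DFR2, ANS2 and ANR1 in the 3 successive steps and between the first and last stage, as points with 95% confidence intervals (limma, 2 arrays per stage). The 4 genes lie together in the first step, and DFR1 lies above the others in the last, at -1.38 against -4.73 for ANS2. The points of DFR2 and ANR1 in comparisons with fully grown beans rest on values below background.

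The 8 embryo markers, among them glycinin and beta-conglycinin storage proteins, summed to between 866 and 1649.6 at bean 5 mm and to between 82095 and 88489.7 in fully grown beans, and all 8 were above background on both fully grown arrays. Not all of them rose: LEC1-A fell from 712 ± 34.7 (SD, n = 2) to 198 ± 11.5, and the mean of WRI1B went from 163 ± 25.2 to 129 ± 29.6. The other embryo markers rose. The seed coat marker SCB1 fell to 617 ± 260 (SD, n = 2) from 4958 ± 273, while HPS went up to 7119.5 ± 235 from 1640.3 ± 382. SCB1 and HPS thus moved in opposite directions, and SCB1 was still well above background in fully grown beans, where DFR2 and ANR1 were not. The part of a changed share of seed coat in the sample was not tested.

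The order of the end stages differed among the genes with equal medians. In fully grown beans 37.3% of tested probe sets were called higher and 24.9% lower than in elongating pods. DFR1 was higher than in elongating pods by 2.43 ± 0.19 (SE, adjusted p = 6.16e-06, limma), and the other 3 were lower: DFR2 by -1.12 ± 0.13 (adjusted p = 8.03e-05), ANS2 by -0.83 ± 0.15 (adjusted p = 0.00107) and ANR1 by -2.97 ± 0.19 (adjusted p = 1.88e-06). For ANR1 the difference is at least 9.11-fold and for DFR2 at least 1.43-fold. The higher level of DFR1 did not hold when the hybridization controls set the scale, which gave -0.024 (adjusted p = 0.893, limma) with 271 and 230.4 in elongating pods. The median over all tested probe sets was then -1.52, against 0.17 with equal medians. The difference for DFR1 was 1.94 after quantile normalization and 1.04 on the deposited values. DFR2, ANS2 and ANR1 stayed lower and called under all 18 alternatives. Relative to DFR1, 93.0% of all tested probe sets were called lower and 1.50% higher between these stages, so that the call of the 3 genes against DFR1 is not particular to them.

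**Figure D3:**
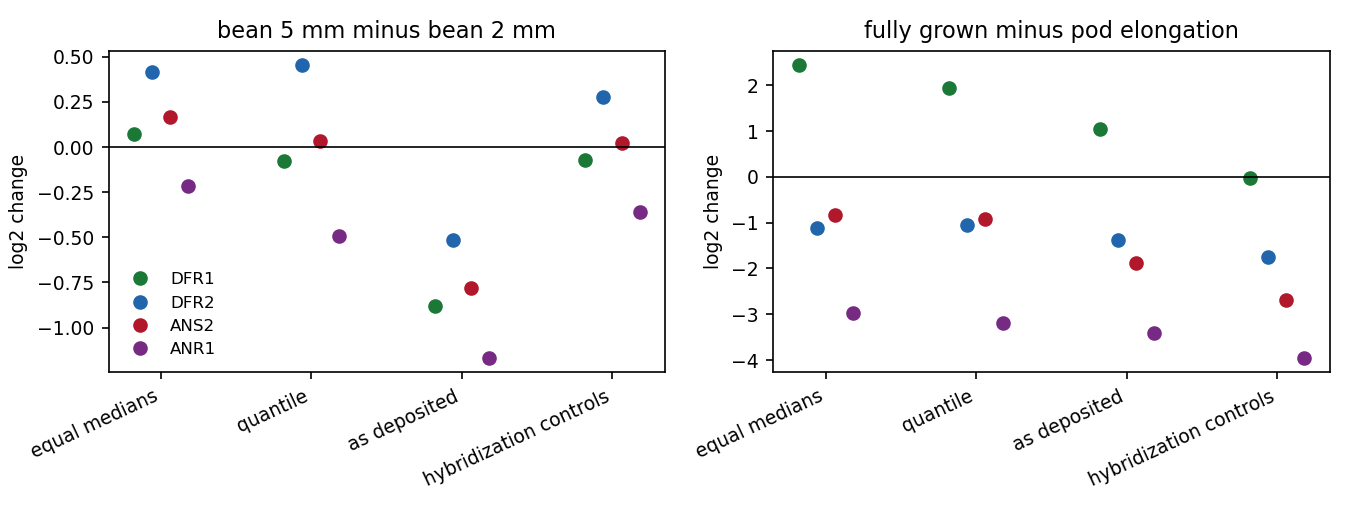
Log2 change of the 4 genes from bean 2 mm to bean 5 mm (left) and from pod elongation to fully grown beans (right) under 4 ways of scaling the arrays. On the left all 4 genes lie below 0 on the deposited values. On the right DFR1 goes from 2.43 to -0.024, and the other 3 genes stay below 0.

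In order of level, DFR1 went from pod elongation to fully grown beans to the young beans, whose 2 stages did not pass the test with equal medians. DFR2 and ANR1 went from fully grown beans, not above background, to pod elongation and then the young beans. ANS2 had the same order, with its fully grown level above background. Each neighbouring pair of levels other than bean 2 mm and bean 5 mm passed the test, although pod elongation and fully grown beans did not for DFR1 on the control scale. Bean 5 mm exceeded elongating pods by between 3.59 for ANR1 and 3.93 for DFR2 on the log2 scale, in a comparison where 21.2% of tested probe sets were called higher and 18.7% lower. Fully grown beans had 31.3% of probe sets called higher and 23.6% called lower than at bean 2 mm, and the change was -1.30 for DFR1 and -4.57 for ANS2. In the same comparison DFR2 was at least 25.96-fold and ANR1 at least 139.8-fold lower. Here too, seeds without pods are set against pods with their seeds.

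The wider pathway was followed through 29 tested enzyme genes found by symbol. All 4 genes described here rose in the first step and fell in the last, against 6.83% of all tested probe sets, a pattern chosen for counting after it had been seen. Of the other 29 enzyme genes 2 did so on their brightest probe set, the 4-coumarate CoA ligase 4CL4 and the chalcone isomerase CHI2-A, a share near that of all probe sets. With any probe set of a gene counted, 4 of 29 did, F3H and the isoflavone reductase IFR1 being the others. That count is not set against the 6.83%, which is a share of single probe sets. 4CL4 went from 106 ± 2.35 (SD, n = 2) at pod elongation to 281 ± 21.1 and 275 ± 48.4 in young beans and to 21.9 ± 3.45 in fully grown beans. CHI2-A went from 323 ± 11.97 to 726 ± 30.3, 699 ± 29.6 and 174 ± 29.7.

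LAR1, the leucoanthocyanidin reductase of the catechin route, was nearest to DFR1 in its course with equal medians. It was below background at pod elongation, read 70.5 ± 5.62 (SD, n = 2) and then 62.1 ± 4.55 in young beans, and stood at 36.4 ± 20.3 in fully grown beans, above background on both arrays. The lower of its fully grown readings, 22.0 against 50.7, was near the backgrounds of 15.98 and 18.6. DFR1 stood at 45.0 and 58.7 times background on those arrays. The first change was at least 11.6-fold (adjusted p = 8.44e-05, limma), and the last, -0.63, did not pass the test (adjusted p = 0.0529). UGT78K1, a flavonoid 3-O-glucosyltransferase and the only other late gene listed, ran the opposite way to ANR1, with 196 ± 3.35 in elongating pods, 20.9 ± 2.22 and then 55.9 ± 8.13 in young beans, and 163 ± 43.3 in fully grown beans.

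Upstream of DFR, F3H, the flavanone hydroxylase that supplies dihydroflavonols, was bright throughout. Its brighter probe set read 2008 ± 30.4 (SD, n = 2) in elongating pods, between 2464 and 2853 on average in young beans and 1386 ± 458 in fully grown beans. It was not called in the first step (0.28, adjusted p = 0.308, limma) and fell by 1.07 in the last, whereas the second F3H probe set rose by 1.28 and fell by 2.66, so the probe sets disagree on the first call and in size. The brighter one is of a kind that can match several transcripts. Of 8 early flavonoid genes, F3H included, 2 rose and 4 fell in the first step, with a median change of -0.76 against 0.08 over all tested probe sets, and 4 rose and 2 fell in the last. Over all tested probe sets these shares were 26.5% and 20.4% in the first step, and 31.6% and 20.5% in the last. The chalcone synthase CHS1 fell by 2.03 in the first step, from 165 ± 34.6 to 28.7 ± 10.9, while the 4 genes from DFR onwards rose. Of the other 4 CHS1 probe sets, those with changes of -1.64 and -2.19 also fell, and those with 0.80 and 0.90 rose.

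From bean 5 mm to fully grown beans, 8 of 12 isoflavonoid and flavonol genes were called higher and 0 lower, where 31.6% of all tested probe sets were called higher and 20.5% lower. Their median change was 0.96 against 0.14 for all tested probe sets. These counts use the brightest probe set of a gene. A dimmer HIDH probe set was called lower, at -0.69. Of the dimmer IFR1 probe sets, the one at -0.48 was called lower and the one at 0.98 higher. The isoflavone synthase IFS1 went from 33.7 ± 18.0 (SD, n = 2) at bean 5 mm to 764 ± 39.1 in fully grown beans, where ANR1 was below background. IFS1 and IFS2 are measured by probe sets that can match several transcripts. The number of enzyme genes called in this step depended on scaling, with 14 of 29 higher and 3 lower here, 5 and 15 on the deposited values, and 3 and 23 on the control scale. In the first step 8 of 29 were higher and 11 lower, where the shares over all probe sets were 26.5% and 20.4%. FLS1, the flavonol synthase that shares its substrate with DFR, fell by 3.97 as the DFR genes rose.

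**Figure D4:**
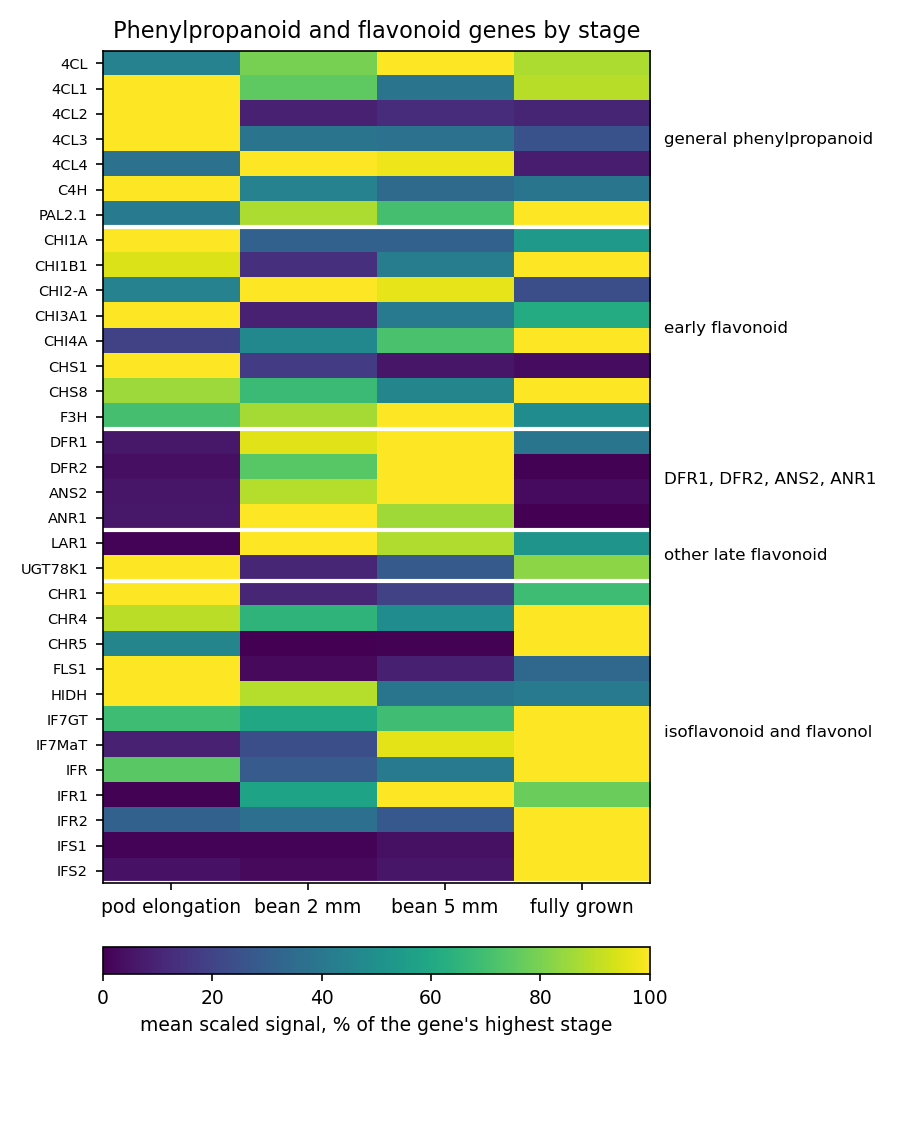
Mean scaled signal at the 4 stages for the 4 genes and 29 other phenylpropanoid and flavonoid genes, each as a percentage of its own highest stage. DFR1, DFR2, ANS2 and ANR1 are dark in elongating pods and bright in both young bean stages, and DFR1 stands at 38.9% in fully grown beans with equal medians, against 7.57% of bean 5 mm on the control scale.

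Among the named genes whose stage means spanned at least 2 on the log2 scale, 307 besides the 4, likeness of course was measured by Pearson's r over the 8 arrays. The arrays form 4 pairs, so r describes mainly the 4 stage levels, here with equal medians. DFR1 was most like LAR1 (r = 0.986), GASA9 of the gibberellin-regulated GASA family (0.977), N-26, a nodulin by its symbol (0.973), and SSTP-1 (0.964). These 4 were above background on both fully grown arrays, as were all the genes listed next except SC-03, on 1 array, and MYB11, on 0. DFR2 was most like MYB73 (0.990), SCB1 (0.974), FRD3a (0.972) and GASA3 (0.971), and ANS2 like MYB73 (0.995), SCB1 (0.990), GASA3 (0.983) and SC-03 (0.981). ANR1 was most like 4CL4 (0.988), MYB73 (0.974), the receptor-like kinase RLK3 (0.966) and MYB11 (0.958).

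The 3 genes that fell deeply were also alike among themselves, with r of 0.995 for DFR2 and ANS2, 0.9748 for DFR2 and ANR1 and 0.963 for ANS2 and ANR1. DFR1 had r of 0.745 with ANS2, 0.706 with DFR2 and 0.550 with ANR1. All r values rest on equal medians and were not computed on the control scale. On that scale DFR1 stood at 7.70% of its bean 5 mm mean in elongating pods and at 7.57% in fully grown beans. Its distance from the other 3 genes may therefore depend on scaling. MYB73, a transcription factor gene near the top for DFR2, ANS2 and ANR1, read 187 ± 0.063 (SD, n = 2) at pod elongation, 978 ± 10.1 and 955 ± 26.3 in the successive young bean stages, and 102 ± 29.7 in fully grown beans. Its rise of 2.29 and fall of 3.07 both passed the test. Of 56 tested MYB genes 15 rose and 14 fell in the first step and 17 rose and 21 fell in the last, and 6 rose and then fell. Over all tested probe sets 26.5% and 20.4% were called higher and lower in the first step, and 31.6% and 20.5% in the last. A share of 6.83% rose and then fell. The MYB counts of higher calls thus lay near the background. The 21 of 56 called lower in the last step and the 6 of 56 that rose and then fell lay above these shares. Those differences were not tested. MYB172 had a larger first rise, of 3.73, close to those of the 4 genes, but stood at 991 ± 369 in fully grown beans against 1170.5 ± 9.68 at bean 5 mm.

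**Figure D5:**
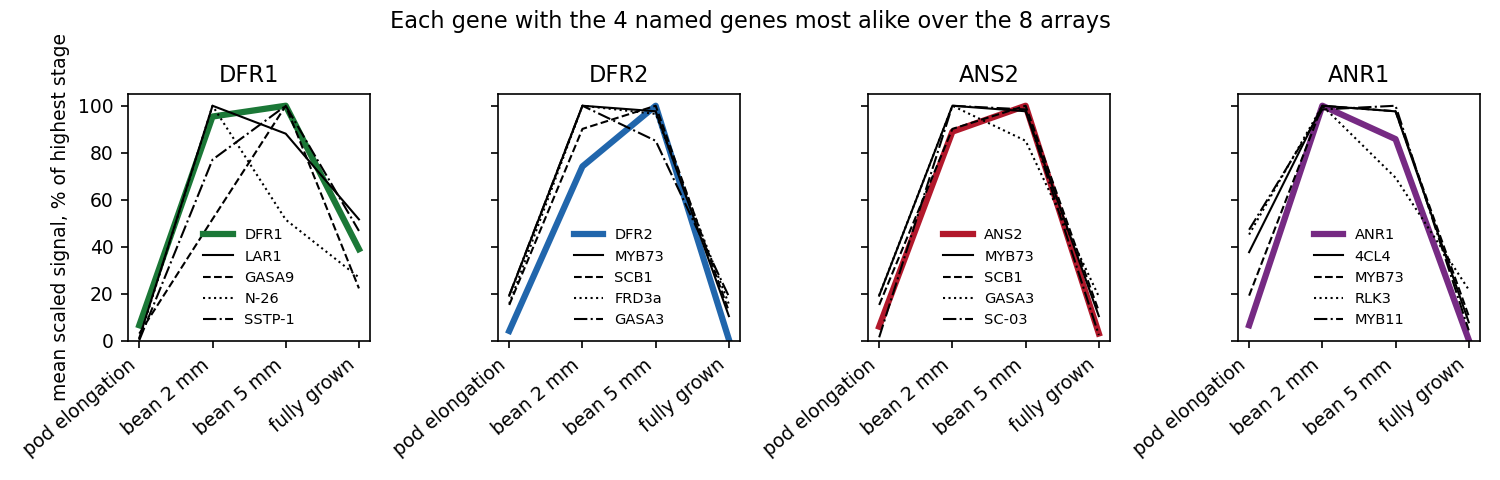
Mean scaled signal by stage as a percentage of the highest stage, for each of the 4 genes (thick line) and the 4 named genes most alike over the 8 arrays (thin lines). The genes were chosen for their likeness, so that each panel shows lines of a similar course.

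Each gene is represented by a single probe set of the kind designed to be unique, so no second probe set checks its course. RefSeq lists ANR2 as the neighbour of ANR1 on the chromosome. It also holds a gene with the symbol ANS3, apart from ANS2, although ANS3 is a synonym of ANS2 as well. The array's annotation names no probe set for ANR2 or for that ANS3 gene, and whether the probe sets of ANR1 and ANS2 also bind their transcripts was not tested.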

How the data were processed

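Transcripts were measured on 8 Affymetrix soybean arrays. The authors deposited 1 linear intensity for each probe set on each array. MAS5 was used for 4 arrays, per the submitters' processing notes, and the step that gave the other values is unknown here, as are version and scaling target.

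Soybean probe sets above the 95th percentile of pathogen probe sets on at least 2 of 8 arrays were tested (33625 of 37641). Arrays were brought to 1 median over those probe sets. The log2 of the scaled signal plus 16 was fitted over all arrays by limma 3.58.1 (lmFit, eBayes with trend) under R 4.3.3. All 6 pairs of stages were tested, two-sided, with Benjamini-Hochberg adjustment. Changes relative to another gene came from ordinary least squares on log ratios within arrays, with 4 residual degrees of freedom. The fit was tested on simulated data. The number of arrays limits the precision.

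Symbols came from the platform annotation, updated through RefSeq (Glycine_max_v4.0, for names only). 8677 probe sets had 1 gene, 370 several, and 28594 soybean probe sets are unnamed here. Genes were named by rule: the 4 genes, up to 4 called genes per pathway list, step and direction, and the 4 most alike per gene. Lists were found by symbol and are incomplete, and the brightest probe set stood for a gene. F3H in the first step, the second probe set of F3H, LAR1 in the last step and the second-stage values of listed genes were added after values were seen. The members and lists were chosen with earlier results of these data known. Replicate numbers in the titles were not taken to pair arrays, since the correlation of deviations between arrays with the same number was only -0.0481 to 0.102. Sequences are not shown.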

Additional observations from a re-analysis of the deposited data

How the results depend on the processing

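Signal over background limits DFR2 and ANR1 in fully grown beans. For values that changed, the cause was not tested. All changes of the 4 genes over steps other than bean 2 mm to bean 5 mm kept direction and call under every alternative, except DFR1 in fully grown beans against elongating pods, at -0.024 on the scale of the hybridization controls. In that second step, DFR1 was at -0.080 after quantile normalization, -0.074 with the hybridization controls and -0.88 as deposited, and between -0.037 (without bean 2 mm replicate 1) and 0.18 when single arrays were left out. DFR2 was called at 0.45 after quantile normalization, 0.38 with a pseudocount of 64 and 0.42 in a fit to the 4 arrays of these stages, was at -0.52 as deposited, and lay between 0.34 and 0.49 without single arrays. ANS2 was at -0.78 and ANR1 at -1.17 as deposited.

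Counts of called probe sets in the steps bean 2 mm against pod elongation and bean 5 mm against bean 2 mm were 24420 and 24480 as deposited, against 15755 and 6316. The second was 9698 in a fit to its own 4 arrays and between 1283 and 11440 without single arrays. Bean 5 mm against pod elongation had 13445 calls, and between 8260 and 17494 without single arrays. Fully grown against bean 2 mm had 29594 as deposited and 29861 with the hybridization controls, against 18473, and fully grown against bean 5 mm 28999 with the hybridization controls, against 17512.

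In the second step 8 pathway enzymes were higher and 2 lower. Without single arrays these were between 2 and 10 and between 1 and 6. They were 4 and 16 as deposited, and the lower were 6 with the hybridization controls, 6 in the fit to 4 arrays and 1 when a gene's probe sets were averaged. In the last step 14 were higher and 3 lower, against 5 and 15 as deposited, 3 and 23 with the hybridization controls, and between 3 and 7 lower without single arrays. Of the MYB genes, 15 were higher in the first step, against 28 as deposited. In the second, 5 were higher and 4 lower, against 1 and 34 as deposited, 9 and 7 in the fit to 4 arrays, 8 lower with the hybridization controls, and between 1 and 9 higher and between 2 and 9 lower without single arrays. In the last, 17 and 21 became 4 and 34 as deposited and 1 and 40 with the hybridization controls.

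With the replicate number as a block, the counts for the 3 successive steps were 15428, 5738 and 17183, and the replicate block changed no call of the 4 genes.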
